A study of Mus musculus with 12 samples.

Results

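The genes of the node of Ranvier and the paranode were followed in the cortex of mice with and without DNA methyltransferase genes in the oligodendrocyte lineage. These were 9 genes, Nfasc, Nrcam, Cntn1, Cntn2, Cntnap1, Ank2, Ank3, Epb41l3 and Scn8a, of the 23354 gene symbols with a value. They were taken by symbol, each with the row of the highest mean level, and all 9 had 1 row and passed the filter on low values described below. Epb41l3 stands in the data under its older symbol Epb4.1l3.

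A myelinated axon conducts in jumps between nodes of Ranvier, short gaps in the myelin where sodium channels are packed at high density. At the paranode, on each side of the gap, the lateral loops of the myelin sheath are fixed to the axon by a junction in which neurofascin of the glial membrane meets contactin and its partner Cntnap1 of the axonal membrane. The channels of the node are held from inside by ankyrins and spectrins, and potassium channels are kept apart in the juxtaparanode under the compact myelin. Neurofascin, the product of Nfasc, is thus made on both sides, by oligodendrocytes in a glial form and by neurons in an axonal form, whereas a gene-level value sums all forms and all cells of the tissue.

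RNA-seq had been carried out on polyA RNA from whole cortex of C57BL/6 mice at postnatal day 16, with 4 groups of 3 mice and 12 libraries. The Dnmt1 conditional knockout (CKO) group was Olig1cre/+;Dnmt1flox/flox and its littermate controls were Olig1+/+;Dnmt1flox/flox. The Dnmt3a CKO group was Olig1cre/+;Dnmt3aflox/flox, with littermate controls of genotype Olig1+/+;Dnmt3aflox/flox. All 12 mice thus carried a floxed methyltransferase gene, and cre was present in the CKO groups and absent from the controls. Cre was expressed from the Olig1 locus, a gene of the oligodendrocyte lineage, with 1 Olig1 allele replaced by it, and the tissue also holds neurons, astrocytes and other cells. Dnmt1 copies DNA methylation after replication and Dnmt3a sets it anew.

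Levels are given in FPKM, fragment counts scaled by transcript length and by the number of mapped fragments, a scale per length on which genes may be compared with each other. Differences between groups are given on the log2(FPKM + 0.1) scale, where changes of low genes come out too small, with standard error (SE) and a p-value from limma's moderated test. The p-values were adjusted by Benjamini-Hochberg over 14115 rows, those whose mean reached 0.5 FPKM. A gene was called at a false discovery rate (FDR) of 10%. With 3 mice against 3, an exact two-sided permutation test of 1 gene cannot give a p below 0.1, so single genes were read from the limma fit over all rows.

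The libraries summed to between 342274 and 417856 FPKM, and no 2 of the 12 libraries held the same values (r from 0.900 to 0.943 over 66 pairs of libraries, across genes). Read numbers per library are not stated, and counting intervals were therefore left out. Cortex markers such as Emx1 and Tbr1 and neuron markers were present in all libraries, and of the 7 marker lists no marker was at 0 in any library. Dnmt1 stood at 9.78 to 10.6 FPKM in the Dnmt1 controls and 7.26 to 9.11 FPKM in the Dnmt1 CKO (log2 difference -0.27, adjusted p = 0.286). Dnmt3a stood at 13.6, 14.2 and 15.4 FPKM in the Dnmt3a CKO and at 31.1, 16.9 and 28.7 FPKM in their controls (-0.78, adjusted p = 0.657). For this gene the library labelled Dnmt3a control replicate 2 was thus close to the CKO level. Many of the tests and counts that use it are given with and without it, and the others only with it. Olig1 fell by 1.19 on the log2 scale in the Dnmt1 CKO (adjusted p = 0.00431 from limma). In the Dnmt3a CKO it was lower without overlap, as 5.45% of all symbols were, and not called (-0.49, adjusted p = 0.657 from limma). Its levels were 48.4, 49.8 and 44.1 FPKM in the Dnmt3a controls and 30.6, 38.8 and 32.2 FPKM in the CKO. The library labelled Dnmt3a control replicate 2 was thus at the control level for Olig1, and its genotype was not tested.

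Nfasc lies on the minus strand of chromosome 1, at chr1:132564690-132741797 in GRCm38 (the assembly also called mm10), and spans 177.1 kb with 30 exons in its longest transcript. Its neighbour Cntn2 (chr1:132509427-132543256, minus strand) is also one of the 9 genes, 21.43 kb away with 0 protein-coding genes between them. The other genes lie apart, Cntn1 (chr15:92051165-92341967) and Scn8a (chr15:100869858-101045938) on the same chromosome, Nrcam on chr12:44328885-44601964, Cntnap1 on chr11:101170523-101190724, Ank2 on chr3:126921612-127499350, Ank3 on chr10:69398773-70027438 and Epb41l3 on chr17:69075683-69289989. Of Cntnap1, 3.44% of all words of 50 bases in its transcripts are shared with other genes, mainly Plekhh3 on the opposite strand, and the counting is not stated to use strand, so its value may hold some reads of that gene. The shares for the other 8 genes were below 1%, and exons of Ank2 also overlap those of Gm16958 on the opposite strand.

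The promoter windows of Nfasc are shown because Nfasc was the member with the called difference, beside that of Nrcam, its relative in the same protein family. Each window runs from 250 bases before to 50 bases after a transcription start in RefSeq (GRCm38.p6), written along the gene's strand, with CG dinucleotides, the sites that Dnmt1 and Dnmt3a methylate, in capitals. DNA methylation was not measured in these libraries. The 3 windows are chr1:132642809-132643108 and chr1:132707277-132707576 for Nfasc, both on the minus strand, and chr12:44328635-44328934 for Nrcam, on the plus strand.
Nfasc window 1: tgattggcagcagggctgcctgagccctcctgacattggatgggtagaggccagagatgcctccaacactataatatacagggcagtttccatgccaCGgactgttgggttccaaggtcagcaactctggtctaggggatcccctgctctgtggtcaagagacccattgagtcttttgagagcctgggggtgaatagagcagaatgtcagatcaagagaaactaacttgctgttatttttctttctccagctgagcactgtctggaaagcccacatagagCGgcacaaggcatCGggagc
Nfasc window 2: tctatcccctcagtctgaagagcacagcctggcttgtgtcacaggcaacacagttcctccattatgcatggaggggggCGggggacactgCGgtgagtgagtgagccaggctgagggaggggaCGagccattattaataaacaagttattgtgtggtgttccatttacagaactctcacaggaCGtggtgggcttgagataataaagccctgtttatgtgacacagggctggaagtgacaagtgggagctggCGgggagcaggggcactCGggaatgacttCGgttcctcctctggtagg
Nrcam window: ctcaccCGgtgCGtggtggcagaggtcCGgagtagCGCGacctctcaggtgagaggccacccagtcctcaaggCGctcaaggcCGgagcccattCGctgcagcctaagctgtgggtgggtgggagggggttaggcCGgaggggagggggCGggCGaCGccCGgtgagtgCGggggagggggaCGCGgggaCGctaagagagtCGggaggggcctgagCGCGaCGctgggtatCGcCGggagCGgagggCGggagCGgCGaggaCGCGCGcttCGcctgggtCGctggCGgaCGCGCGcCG
The Nfasc windows hold 3 and 7 CG dinucleotides and the Nrcam window 37. Both Nfasc windows lie inside the gene, which on the minus strand begins at chr1:132741797, and no window at that outermost start was available. The Nrcam window spans the first base of its gene (chr12:44328885). The counts thus do not compare the outermost starts of Nfasc and Nrcam. Over all 32851 RefSeq promoter windows of this length the median was 7, with quartiles of 3 and 20, so that 76.7% and 52.1% of windows hold at least as many as those of Nfasc and 5.58% at least as many as that of Nrcam. Of the 9 genes, 7 were matched to 16 windows, and the others with a window were Scn8a (38 and 12 CG), Cntn2 (13), Epb41l3 (16, 18 and 2), Cntn1 (9, 5 and 4) and Ank2 (2, 5, 5 and 21).

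In the Dnmt1 CKO cortex Nfasc fell by 0.61 on the log2 scale, while the 8 other genes of the node and paranode did not pass the test. Its levels were 47.3, 45.9 and 47.1 FPKM in the Dnmt1 controls and 30.7, 30.7 and 30.3 FPKM in the Dnmt1 CKO. The 3 CKO libraries had a coefficient of variation of 0.789%, the controls 1.60%, and all CKO values lay below the lowest control. The difference was -0.61, or -34.6% (SE 0.024 and 95% interval -0.67 to -0.55 on the log2 scale, adjusted p = 0.000334), and it ranked 11 of 14115 rows by p. The exact permutation test on the 3 against 3 values gave p = 0.1, the smallest it can give. Of the 9 genes, 1 was called, and it was lower, against 3.15% of all 14075 symbols called in either direction and 2.3% called lower. The 9 genes were chosen with the fall of Nfasc known, so counts that include Nfasc do not test the set.

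**Figure D1:**
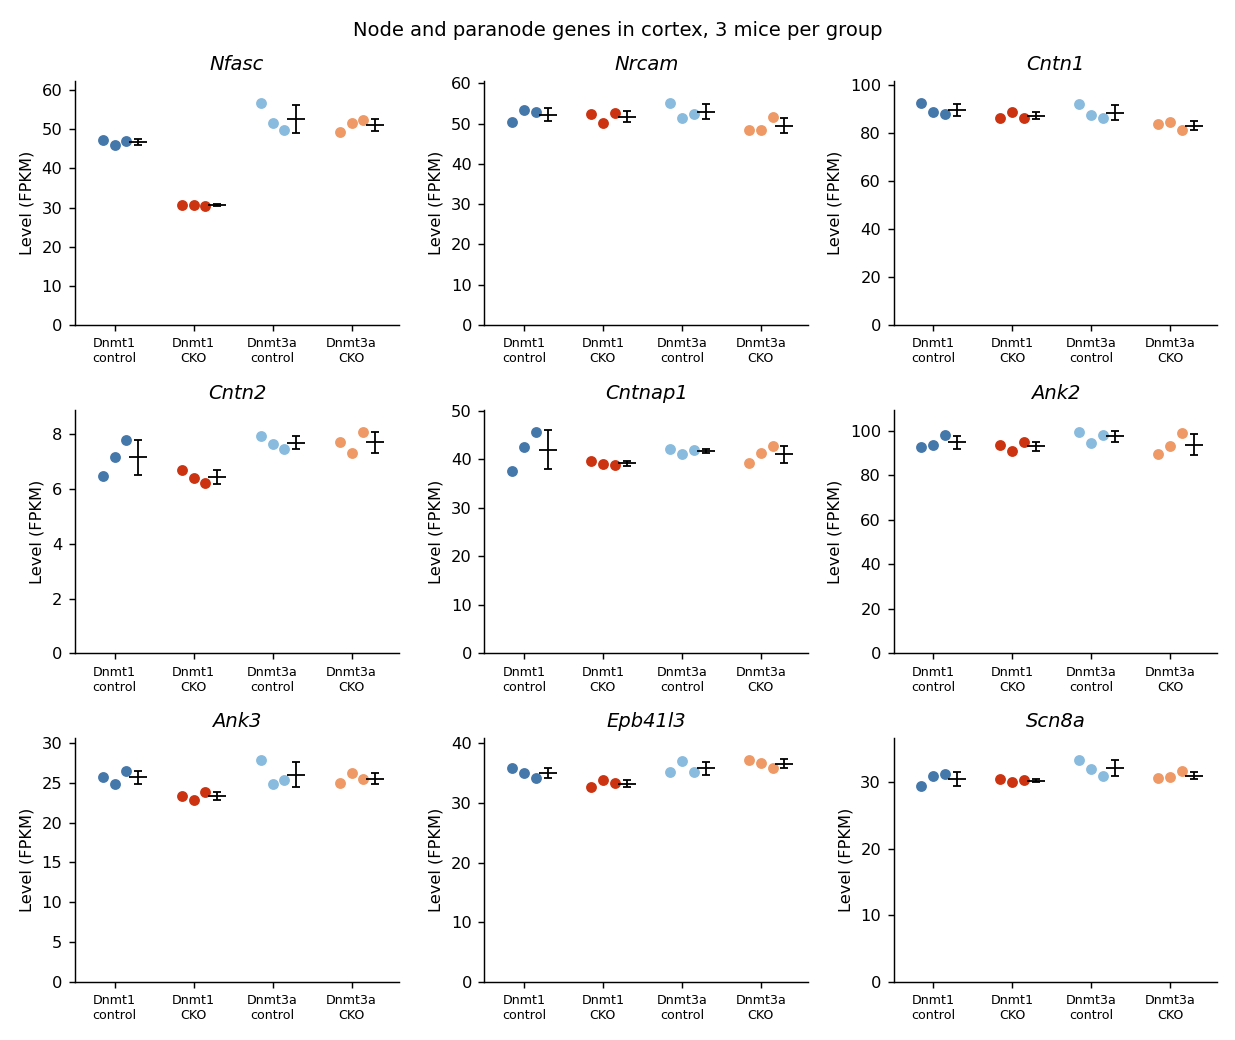
Level of each of the 9 genes (FPKM, axes from 0) in every library by group, with the mean and SD of 3 mice beside the points. Nfasc in the Dnmt1 CKO (30.3 to 30.7 FPKM) stands below all other libraries (45.9 to 56.7 FPKM), and no other gene shows a gap of that size.

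Nrcam is the other L1 family adhesion molecule of nodes. Its 3 Dnmt1 control libraries were at 50.5, 53.4 and 52.8 FPKM and the CKO libraries at 52.4, 50.2 and 52.6 FPKM, so that the groups overlapped. The difference was -0.01 (SE 0.034, 95% interval -0.10 to 0.07, adjusted p = 0.906). The ratio of Nfasc to Nrcam within each library was 0.896 ± 0.039 (SD, n = 3) in the controls and 0.591 ± 0.018 in the CKO, with no overlap between the groups.

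The axonal partners of the paranodal junction are contactin (Cntn1) and Cntnap1. Levels of Cntn1 were 92.2, 88.5 and 87.7 FPKM in the Dnmt1 controls versus 86.1, 88.8 and 86.2 FPKM in the CKO, a difference of -0.04 (95% interval -0.12 to 0.04, adjusted p = 0.623). Cntnap1 was at 37.7, 42.6 and 45.7 FPKM against 39.7, 39.0 and 38.8 FPKM, a difference of -0.10 (95% interval -0.27 to 0.08, adjusted p = 0.597). For both genes the groups overlapped, and for Cntnap1 the controls themselves spread over more than the difference, with a coefficient of variation of 9.65% against 1.23% in the CKO. The ratio of Cntnap1 to Cntn1 was 0.470 ± 0.057 in the controls and 0.450 ± 0.011 in the CKO (SD, n = 3).

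Cntn2, a contactin of the juxtaparanode found on axon and glia, was the lowest of the 9 genes. The Dnmt1 controls had 6.49, 7.19 and 7.79 FPKM and the CKO 6.71, 6.39 and 6.23 FPKM, with 1 CKO library above the lowest control. The difference of -0.15 was not called (SE 0.076, 95% interval -0.33 to 0.04, adjusted p = 0.449). Nfasc and its nearest neighbour on the chromosome thus had estimates of -0.61 and -0.15, whose difference was not tested.

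Of the proteins that tie the membrane to the skeleton below it, Ank3 (ankyrin-G) clusters sodium channels at nodes, Ank2 (ankyrin-B) anchors membrane proteins along the axon, and Epb41l3 (a protein 4.1) links Cntnap1 to the cytoskeleton at the paranode. Ank3 levels were 25.7, 24.9 and 26.5 FPKM in the Dnmt1 controls and 23.3, 22.8 and 23.9 FPKM in the CKO, and the groups did not overlap, but the difference of -0.14 (SE 0.034, 95% interval -0.22 to -0.06) was not called (adjusted p = 0.146). Epb41l3 was at 35.8, 35.0 and 34.2 FPKM against 32.6, 33.8 and 33.3 FPKM, again without overlap and again not called (-0.08, SE 0.029, adjusted p = 0.306). Ank2 was at 92.8, 93.5 and 98.1 FPKM against 93.5, 90.8 and 94.9 FPKM and its groups overlapped (-0.03, 95% interval -0.11 to 0.06, adjusted p = 0.785). With Nfasc, Ank3 and Epb41l3 made 3 of 9 genes whose CKO libraries all lay below all controls, against 14.4% of all symbols. The ratio of Ank3 to Ank2 was 0.271 ± 0.0052 in the controls and 0.251 ± 0.0014 in the CKO (SD, n = 3).

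Scn8a, the main sodium channel subunit of mature nodes, had 29.4, 30.9 and 31.3 FPKM in the Dnmt1 controls versus 30.5, 30.0 and 30.3 FPKM in the CKO. The CKO libraries lay inside the range of the controls, with a difference of -0.01 (SE 0.031, 95% interval -0.09 to 0.07, adjusted p = 0.919). All 9 estimates were negative, as were those of 8260 of all 14115 rows, with a median of -0.08 beside -0.02 over all rows. The estimates of Nrcam and Scn8a turned positive when the libraries were rescaled by median ratio (0.01 each).

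**Figure D2:**
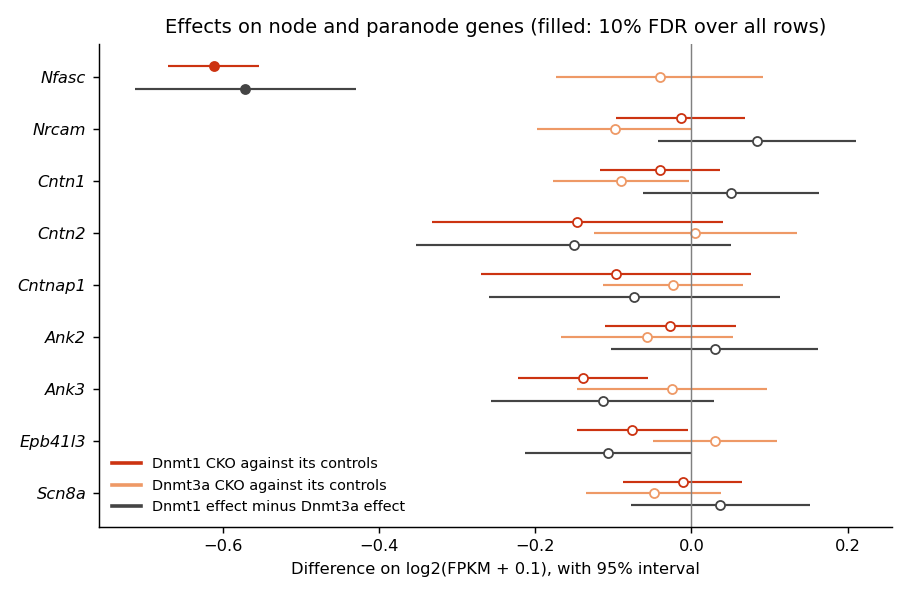
Differences with 95% intervals on log2(FPKM + 0.1) for each gene, for Dnmt1 CKO against its controls (red), Dnmt3a CKO against its controls (orange) and the Dnmt1 effect minus the Dnmt3a effect (dark grey), filled where called at 10% FDR. Nfasc has the 2 filled points, at -0.61 and -0.57, and the other estimates lie between -0.15 and 0.08.

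In the order of the 9 genes by level, Nfasc moved and the other 8 genes kept theirs in the Dnmt1 line. In the Dnmt1 controls the mean levels ran from Ank2 (94.8 FPKM) over Cntn1 (89.5), Nrcam (52.2), Nfasc (46.7), Cntnap1 (42.0), Epb41l3 (35.0), Scn8a (30.5) and Ank3 (25.7) to Cntn2 (7.16 FPKM), and no neighbours in this order overlapped. In the Dnmt1 CKO Nfasc (30.5 FPKM) stood at place 6, between Epb41l3 (33.2 FPKM) and Scn8a (30.3 FPKM), and its libraries overlapped those of Scn8a. Nfasc made up 11.0% ± 0.24 of the summed FPKM of the 9 genes in the controls and 7.74% ± 0.093 in the CKO (SD, n = 3).

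Markers of cell types were read in the same libraries. The summed level of 8 myelinating oligodendrocyte markers, Mbp, Mag, Mog, Mobp, Cnp, Mal and Aspa among them, was 1852 to 2162 FPKM in the Dnmt1 controls and 547 to 637 FPKM in the CKO, or 29.6% of the control mean, and 8 of 8 were called lower. Of all symbols, 2.3% were called lower and 0.845% higher in this comparison. The 5 oligodendrocyte progenitor markers summed to 64.8 to 75.7 FPKM against 60.4 to 63.7 FPKM, with 2 called lower, Pdgfra (-0.30) and Sox6 (-0.31). With these, Lhfpl3 made 3 of 5 that were lower without overlap (11.9 to 14.7 FPKM against 10.6 to 11.8 FPKM), and it was not called. The 9 neuron markers summed to 1993 to 2151 FPKM against 2059 to 2107 FPKM, with 0 of 9 called by limma and 1 of 9 not overlapping in each direction, where 14.4% of all symbols were lower and 6.39% higher without overlap. The 6 astrocyte markers summed to 614 to 635 against 609 to 616 FPKM. Of these Gfap was called higher (0.45), and 3 were lower without overlap and not called, Aqp4 (-0.28), Gja1 (-0.11) and Slc1a2 (-0.11). The 5 endothelium markers (56.4 to 61.9 against 48.3 to 54.5 FPKM) all had negative estimates, and 3 of them did not overlap, Cldn5 (-0.31), Pecam1 (-0.20) and Esam (-0.16), with 0 of 5 called by limma and 2 at an unadjusted p under 0.05. Of 5 microglia markers (57.3 to 60.9 against 55.0 to 59.6 FPKM) 0 were called by limma, 0 had an unadjusted p under 0.05 and 0 did not overlap. The part of these shifts in the fall of Nfasc was not tested, and in whole tissue fewer cells of a type and less RNA per cell cannot be told apart.

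**Figure D3:**
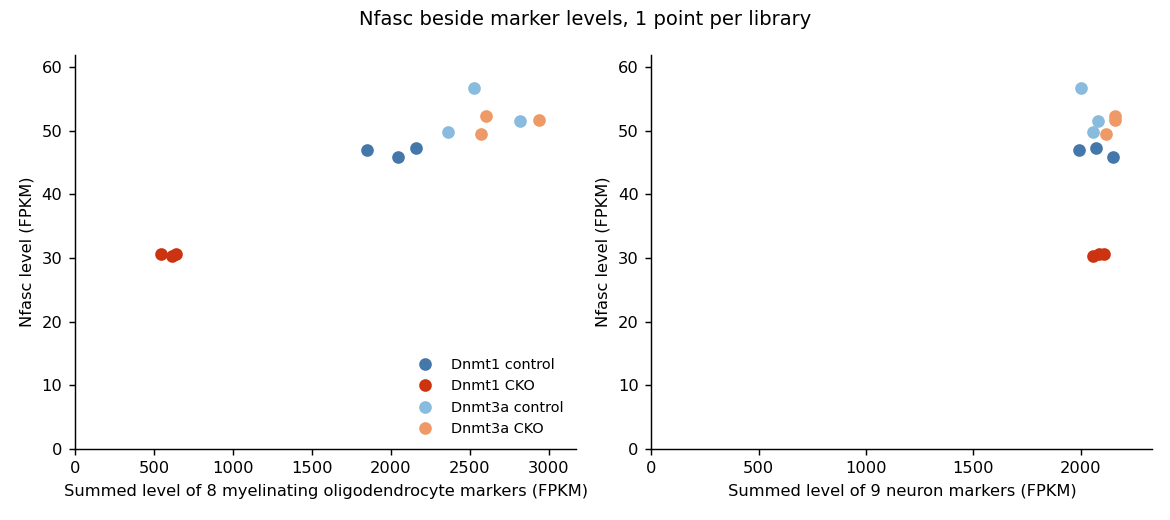
Nfasc level (FPKM) against the summed level of 8 myelinating oligodendrocyte markers (left) and of 9 neuron markers (right), 1 point per library, all axes from 0. The 3 Dnmt1 CKO libraries are apart from the rest on the left (547 to 637 FPKM of markers), and on the right they lie within the range of neuron markers of the other libraries.

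In the Dnmt3a CKO 0 of the 9 genes were called by limma, where 0.0142% of all symbols were, and 1 of the 9 had an unadjusted p under 0.05, against 7.36% of all symbols. Nfasc was at 56.7, 51.6 and 49.8 FPKM in the Dnmt3a controls and 49.4, 51.7 and 52.4 FPKM in the CKO, and the groups overlapped. Its difference was -0.04 (SE 0.054, 95% interval -0.17 to 0.09, adjusted p = 0.872), and -0.06 (adjusted p = 0.869) when the library labelled Dnmt3a control replicate 2 was left out. Without Dnmt3a control replicate 1, the highest library for Nfasc, it was 0.01.

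Cntn1 was the gene with the unadjusted p under 0.05. It was at 91.9, 87.2 and 85.9 FPKM in the Dnmt3a controls and 83.6, 84.3 and 81.0 FPKM in the CKO, with no overlap and a difference of -0.09 (95% interval -0.18 to -0.003, adjusted p = 0.657). Nrcam had a similar estimate of -0.10 (95% interval -0.20 to 0.0008, adjusted p = 0.657), from 55.1, 51.4 and 52.4 FPKM in the controls and 48.4, 48.5 and 51.6 FPKM in the CKO. Its groups overlapped through the library labelled Dnmt3a control replicate 2, and without it 2 of the 9 genes were lower without overlap, in place of 1 of 9. Without that library Nrcam, at -0.12, was the 1 gene of 9 with an unadjusted p under 0.05, against 6.85% of all symbols, and Cntn1 was at -0.10 (unadjusted p = 0.0709). Over all symbols 5.45% did not overlap in that direction, and 9.4% without that library.

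The other genes of the node and paranode in the Dnmt3a line had overlapping groups. Ank2 had 99.6, 94.5 and 98.3 FPKM without and 89.4, 93.1 and 98.9 FPKM with cre (-0.06), and Ank3 27.9, 24.9 and 25.3 FPKM against 24.9, 26.2 and 25.5 FPKM (-0.03). Epb41l3 was at 35.2, 37.1 and 35.1 FPKM against 37.2, 36.8 and 35.8 FPKM (0.03), and Scn8a at 33.4, 32.0 and 31.0 FPKM against 30.6, 30.8 and 31.7 FPKM (-0.05). Each of these 4 estimates was smaller than 2 of its standard errors. Cntn2 was at 7.94, 7.65 and 7.47 FPKM against 7.71, 7.34 and 8.10 FPKM (0.00), and Cntnap1 at 42.1, 41.2 and 41.9 FPKM against 39.2, 41.3 and 42.7 FPKM (-0.02). Adjusted p-values of these 6 genes ran from 0.776 to 0.993. Without the library labelled Dnmt3a control replicate 2 the estimates were -0.08 for Ank2, -0.06 for Ank3, 0.06 for Epb41l3, -0.05 for Scn8a, 0.00 for Cntn2 and -0.03 for Cntnap1, with 0.759 as the lowest adjusted p, and Epb41l3 was then higher in the CKO without overlap. The summed myelinating oligodendrocyte markers were 2359 to 2818 FPKM in the Dnmt3a controls and 2573 to 2939 FPKM in the CKO (105% of the control mean, and 111% without that library), with 0 of 8 called in both cases. None of the 8 was higher without overlap, and 3 of 8 were without that library, where 13.7% of all symbols were.

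In both Dnmt3a groups Nfasc and Nrcam stood next to each other and overlapped, with 52.7 and 53.0 FPKM in the controls and 51.2 and 49.5 FPKM in the CKO. The ratio of Nfasc to Nrcam was 0.994 ± 0.040 in the Dnmt3a controls and 1.03 ± 0.028 in the CKO, and the share of Nfasc in the summed FPKM of the 9 genes was 12.1% ± 0.47 and 12.2% ± 0.14 (SD, n = 3).

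The effects of the 2 lines were then compared in 1 model of all 12 libraries. The Dnmt1 effect on Nfasc minus the Dnmt3a effect was -0.57 (SE 0.064, 95% interval -0.71 to -0.43, adjusted p = 0.000803), and -0.56 (adjusted p = 0.00358) when the library labelled Dnmt3a control replicate 2 was left out. Nfasc was the 1 gene of 9 called, against 2.12% of all symbols. The differences of the other 8 lay between -0.15 for Cntn2 (95% interval -0.35 to 0.05, adjusted p = 0.617) and 0.08 for Nrcam (95% interval -0.04 to 0.21, adjusted p = 0.668). For Ank3 and Epb41l3, whose Dnmt1 groups did not overlap, the differences were -0.11 each, with adjusted p-values of 0.593 and 0.477. Without the library labelled Dnmt3a control replicate 2 they were -0.08 and -0.13 (adjusted p = 0.753 and 0.338). Nfasc was then again the 1 gene of 9 called, where 236 of 14075 symbols were. At an unadjusted p under 0.05 were 2 of 9, Nfasc and Epb41l3, beside 9.81% of all symbols.

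The 2 control groups were set against each other to see how far the lines differed without cre. Of the 9 genes, 0 were called by limma, where 0.0071% of symbols were, and 1 of 9, Nfasc, had an unadjusted p under 0.05, against 7.74% of all symbols. The 3 Dnmt1 controls (45.9 to 47.3 FPKM) lay below the 3 Dnmt3a controls (49.8 to 56.7 FPKM), a difference of -0.17 (SE 0.051, adjusted p = 0.592), as 3.99% of all symbols did. The other 8 genes overlapped. Without the library labelled Dnmt3a control replicate 2 the difference of Nfasc was -0.19 (SE 0.062, adjusted p = 0.897), and Ank2 (-0.06) was also lower without overlap, so that 2 of 9 genes were, where 6.68% of all symbols were. All 8 myelinating oligodendrocyte markers were lower in the Dnmt1 controls without overlap as well, with a median difference of -0.35 and 0 of 8 called (without that library 8 of 8, -0.28 and 0 of 8), and their part in the level of Nfasc was not tested.

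Among 29 other genes listed for the same domains, the called ones were mostly those listed under the glial loops. That list holds genes of the myelinating cells that form the loops, not only proteins placed in the loops. All 5 genes of this list fell in the Dnmt1 CKO. Opalin, a membrane protein of oligodendrocytes, fell by 2.45 (-2.45, adjusted p = 0.00234 from limma). Ugt8a, the enzyme that makes galactosylceramide, fell by 1.79 (-1.79) and Cldn11, the claudin of myelin tight junctions, by 1.67 (-1.67). Gal3st1, which makes sulfatide from galactosylceramide, fell by 0.85 (-0.85, adjusted p = 0.0312 from limma). Cldn11, the highest of them, had 95.8, 90.5 and 83.9 FPKM in control and 26.2, 30.7 and 28.0 FPKM in CKO libraries. The call of Gal3st1 was lost with the replicate number as a block in the model (adjusted p = 0.147) and when Dnmt1 control replicate 1 or 2 or Dnmt1 CKO replicate 1 or 3 was left out (-0.87 to -0.78, adjusted p from 0.108 to 0.133). Nfasc, with -0.61, fell by less than each of these 5 in the estimate. These genes are made by the cells that the marker list above marks, and Ugt8a and Cldn11 are themselves widely used as such markers.

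Of the channels and the proteins below the axonal membrane none was called in the Dnmt1 CKO: 0 of 9 node channels, 0 of 3 spectrins and 0 of 6 juxtaparanodal genes by limma, with 1, 0 and 0 at an unadjusted p under 0.05, against 15% of all symbols. The highest spectrin was Sptan1, the alpha spectrin of the axonal skeleton (150.4 FPKM in the controls, difference 0.03), and the highest juxtaparanodal gene was Dlg4, a scaffold that binds the juxtaparanodal potassium channels and is abundant at synapses (234.1 FPKM, 0.01). Their adjusted p-values were between 0.791 and 0.965. Of 6 genes of the perinodal matrix, 1 was called: Bcan, the proteoglycan brevican, with 68.6, 65.1 and 69.2 FPKM in control and 53.9, 57.3 and 53.3 FPKM in CKO libraries (-0.30, SE 0.040, adjusted p = 0.0260). That call was lost with the replicate number as a block (adjusted p = 0.185) and when Dnmt1 CKO replicate 1 or 3 was left out (-0.29 with adjusted p = 0.122, and -0.28 with adjusted p = 0.108). Over the 29 genes 6 were called, all lower, with a median of -0.03, and 5 of these 6 were the glial loop genes. Of all symbols 3.15% were called in either direction and 2.3% called lower.

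In the Dnmt3a CKO 0 of the 29 genes were called by limma and 7 had an unadjusted p under 0.05, against 7.36% of all symbols (8 against 6.85% without the library labelled Dnmt3a control replicate 2). Of these 29 genes 2 did not overlap in the lower direction, beside 5.45% of all symbols, and 3 of 29 beside 9.4% without that library. In the higher direction 5 did not overlap, among them Bcan (62.8 to 63.7 FPKM in the controls, 68.3 to 77.2 FPKM in the CKO, 0.18) and Hapln2, a link protein of the nodal matrix (0.86 to 1.22 FPKM against 1.40 to 1.63 FPKM, 0.52), where 7.34% of all symbols were higher without overlap. Without that library 9 of 29 did not overlap in the higher direction, against 13.7% of all symbols, and the estimates were 0.18 for Bcan and 0.66 for Hapln2. The difference between the lines was called for 7 of 29, against 2.12% of all symbols. These were the 6 genes called in the Dnmt1 CKO and Hapln2 (-0.96, adjusted p = 0.0466). The call of Hapln2 was lost with the replicate number as a block (adjusted p = 0.127) and when Dnmt1 control replicate 1 or 2 or Dnmt1 CKO replicate 3 was left out (adjusted p from 0.103 to 0.121). Its difference was -1.10 (adjusted p = 0.0140) without the library labelled Dnmt3a control replicate 2. Hapln2 alone was not called in the Dnmt1 CKO (0.69 to 0.85 FPKM against 0.50 to 0.57 FPKM, -0.43, adjusted p = 0.119). For Bcan the difference between the lines was -0.48 (SE 0.068, adjusted p = 0.00381), and -0.48 (adjusted p = 0.0134) without that library.

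**Figure D4:**
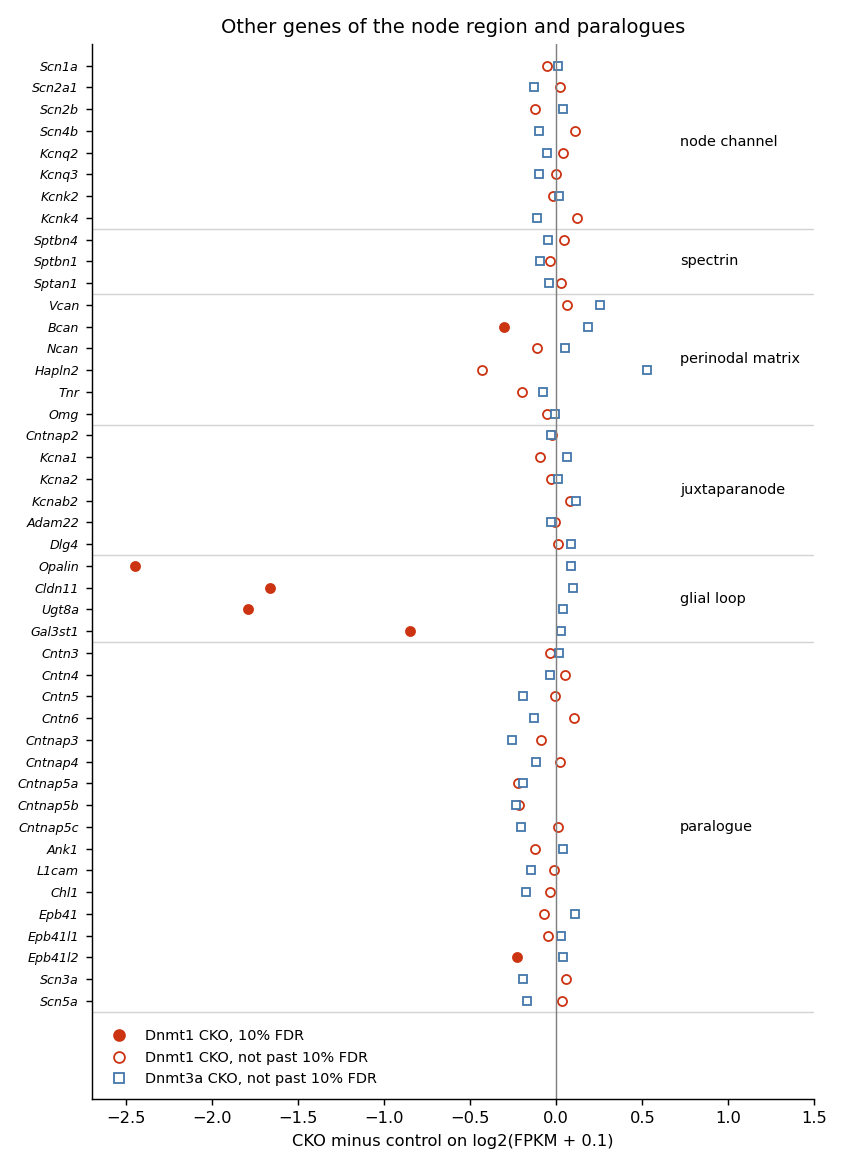
CKO minus control on log2(FPKM + 0.1) for the other genes of the node region that are reported here, by role, and 17 paralogues of the 9 genes, in the Dnmt1 line (circles, filled where called at 10% FDR) and the Dnmt3a line (squares, none called). The glial loop genes shown lie between -2.45 and -0.85 in the Dnmt1 line, and the node channels and spectrins shown lie between -0.13 and 0.12 in both lines.

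Relatives of the 9 genes by sequence family were read as well, 18 paralogues of which 17 passed the filter (Scn9a, at a mean of 0.304 FPKM, did not). In the Dnmt1 CKO 1 of 17 was called, against 3.15% of all symbols. This was Epb41l2, of the protein 4.1 family, with 29.3, 28.8 and 28.5 FPKM in control and 24.7, 24.9 and 24.2 FPKM in CKO libraries (-0.23, SE 0.025, adjusted p = 0.0117). The groups of L1cam (-0.02) and Chl1 (-0.04), the other members of the L1 family that Nfasc and Nrcam belong to, overlapped. The call of Epb41l2 was lost with the replicate number as a block (adjusted p = 0.101). Epb41l2 was also the 1 paralogue of 17 whose effect differed between the lines (-0.27, adjusted p = 0.0290, and -0.28, adjusted p = 0.0508, without the library labelled Dnmt3a control replicate 2). With all 12 libraries 2.12% of all symbols were called in that difference. The highest paralogues of each family in level were Cntn4, Cntnap5a, Ank1, L1cam, Epb41l1 and Scn3a. Their Dnmt1 estimates ran from -0.22 (Cntnap5a, adjusted p = 0.120 from limma) to 0.05 (Scn3a and Cntn4). Epb41l1, which is of the same family as Epb41l2 and higher in level, was thus not called. The spread of the Epb41l2 estimate was as small as that of Nfasc, with standard errors of 0.025 and 0.024.

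In the Dnmt3a CKO 0 of 17 paralogues were called by limma and 6 had an unadjusted p under 0.05, against 7.36% of all symbols. Their median difference was -0.14, beside 0.01 over all rows, and for 8 of 17 the CKO lay below the controls without overlap, as for 5.45% of all symbols. Without the library labelled Dnmt3a control replicate 2 these were 10 of 17 beside 9.4%, with a median of -0.18. In that case 0 of 17 were called by limma and 7 had an unadjusted p under 0.05, beside 6.85% of all symbols. L1cam, a neuronal adhesion molecule, had 37.1, 33.8 and 37.0 FPKM in control and 31.8, 33.1 and 32.6 FPKM in CKO libraries (-0.14, adjusted p = 0.657, and -0.19 without that library). Scn3a, a sodium channel of the immature brain, was at 7.50, 7.47 and 7.43 FPKM against 6.43, 6.93 and 6.19 FPKM (-0.19 with and without that library, adjusted p = 0.657 with it). These counts were made on the deposited scale and not under another scaling.

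As a description over the 12 libraries, the genes whose log2 levels were most like those of Nfasc were Sema4d (Pearson r = 0.992), Gjc3 (0.992) and Ugt8a (0.989). The points share the 4 groups, and when each library was taken as its deviation from its group mean 0 of these 3 stayed among the 3 most alike. The 3 most alike genes of the other members had lower r, from 0.838 to 0.965. They were 3110057O12Rik (0.950), D130043K22Rik and Iws1 for Nrcam, Trpc5 (0.913), Cdh8 and Tet1 for Cntn1, Usp31 (0.930), Kcnc1 and Dnajb2 for Cntn2, and Prpf4b (0.890), Rbm28 and Tbc1d19 for Cntnap1. For Ank2 they were Nav2 (0.947), Bcat2 and Cttnbp2, for Ank3 Itpr2 (0.921), 9830001H06Rik and Wdfy3, for Epb41l3 Agpat3 (0.965), Eif5a2 and Adssl1, and for Scn8a Jakmip3 (0.883), Gm608 and Clstn2 (0.838). Among the 9 genes themselves, Nfasc was most alike to Ank3 (r = 0.852 over 12 libraries, 0.779 on deviations from group means), and its r with Epb41l3 was 0.810 over the libraries and -0.25 on deviations. No p is given for these values, since the genes and libraries share their source.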

How the data were processed

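RNA-seq of 12 cortex libraries was used, in 4 groups of 3 mice taken from the labels. The authors aligned reads to mm10 with TopHat, quantified them with Cufflinks (versions not given in the sources used here) and deposited FPKM values per gene symbol. No source used here says if the libraries were scaled to each other. Every condition column was assigned (0 were left over), and 302 exact duplicate rows of 23850 were dropped. FPKM are not counts, so no count test was run.

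Each CKO was set against its littermate controls, and the controls against each other, with limma 3.58.1 in R 4.3.3 (lmFit, then eBayes with the trend option). The scale was log2(FPKM + 0.1), for rows with a mean FPKM of 0.5 or more. P-values were adjusted by Benjamini-Hochberg over all rows and read at 10% FDR. The Dnmt1 effect minus the Dnmt3a effect was tested as an interaction over 12 libraries. These contrasts share control libraries. P-values measure the spread between mice. The code was tested on simulated data.

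The 9 genes and the lists of domain genes, paralogues and markers were chosen with earlier results of these data known, the fall of Nfasc among them. Of the members, 8 were matched by symbol and 1 by an older symbol. Named with values were the members, the called domain genes and paralogues, the one with the highest mean in each role, and the 3 genes with the highest Pearson r to each member. Other genes were named after their values were seen, and some listed genes enter the counts and sums but are not reported here. Positions came from GENCODE M21 (GRCm38), promoters from RefSeq. Python 3.11.15, numpy 2.4.6, pandas 2.3.3 and matplotlib 3.10.9 were used.

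As alternatives, the pseudocount was set to 1 or 0.01, the filter to 1 FPKM or none, and the trend option was dropped. Libraries were rescaled by median ratio or quantile normalized, and rows of a symbol were summed. The replicate number was added as a block or the level of Xist as a covariate, the 4 groups were put in 1 model, the FDR was set to 5%, and each library was left out. Xist was at 0.045, 0.031 and 49.4 FPKM in the Dnmt1 controls and at 1.69, 1.80 and 1.85 FPKM in the Dnmt1 CKO. In the Dnmt3a line it was at 0.078, 0.040 and 49.4 FPKM against 0.085, 0.047 and 46.2 FPKM. In the Dnmt1 line this covariate was thus not separate from genotype, and sex itself was not entered in a model. Counts of non-overlapping groups and of unadjusted p-values, and marker sums, without the library labelled Dnmt3a control replicate 2 were added after seeing the data.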

Additional observations from a re-analysis of the deposited data

Results flagged for a closer look

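The effect of the CKO on Nfasc differed between the Dnmt1 and the Dnmt3a line, by -0.57 on the log2 scale (SE 0.064, adjusted p = 0.000803 in limma's interaction test over 12 libraries). It stands here because the same contrast, CKO against littermate controls, gave effects that the test of their difference told apart. All 3 Dnmt1 CKO libraries lay below all 3 of their controls, and the Dnmt3a groups overlapped. The 8 myelinating oligodendrocyte markers differed between the lines as well (8 of 8 called, median -1.99), and their part in the result was not tested. Without the library labelled Dnmt3a control replicate 2 the difference of Nfasc was -0.56 and the median of the markers -2.06, with 8 of 8 called.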

How the results depend on the processing

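Nfasc kept its call in the Dnmt1 CKO under all 17 alternatives (-0.62 to -0.59, adjusted p from limma 1.49e-05 to 0.0262) and in the difference between the lines under all 22 (-0.62 to -0.52, adjusted p 0.000148 to 0.0227). The number of members called, 1, 0, 1 and 0 in the 4 comparisons, was the same under each alternative. Same-numbered CKO and control libraries did not deviate together (r from -0.079 to 0.035, and 1 of 6 and 0 of 6 libraries correlated best with their own number), so the numbers were not taken as pairs. With the replicate number as a block, 161 genes were called in the Dnmt1 CKO in place of 443, with 4 of 29 domain genes (Gal3st1 and Bcan were lost), 0 paralogues (Epb41l2 was lost) and Nfasc at an adjusted p of 0.0262, Hapln2 not called in the difference between the lines, 1 gene in place of 2 in the Dnmt3a CKO, and 0 between the controls.

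Over all genes, 262 were called in the Dnmt1 CKO at 5% FDR, and 198 to 340 with each library left out (198 when Dnmt1 CKO replicate 1 was dropped, 215 for replicate 3 and 265 for replicate 2 of that group, and 205 for replicate 2 of the Dnmt1 controls). A single model of the 4 groups gave 2 paralogues there, and median ratio rescaling 2 paralogues in the difference between the lines. In the Dnmt3a CKO 1 gene was called with a pseudocount of 1, a minimum mean of 1 FPKM, quantile normalization, the Xist covariate, 1 model of the 4 groups or 5% FDR, 20 without a filter and 2 to 5 with each library left out. Between the controls 0 were called with a pseudocount of 1, the Xist covariate or 1 model of the 4 groups, 8 without a filter and 1 to 4 with each library left out. Without the library labelled Dnmt3a control replicate 2, 2 members and 1323 of all genes were lower without overlap in the Dnmt3a CKO, against 1 and 767, and 2 members and 940 genes between the controls, against 1 and 561. The causes were not tested.

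Among the 9 genes, signs turned only for differences that were not called. Under median ratio rescaling these were Nrcam (0.011) and Scn8a (0.014) in the Dnmt1 CKO, Cntn2 (-0.0051) in the Dnmt3a CKO, and Cntn1 (-0.0078) and Cntnap1 (-0.022) between the controls. Quantile normalization turned Scn8a (0.012) in the Dnmt1 CKO, and Cntn1 (-0.013) and Cntnap1 (-0.028) between the controls. With each library left out, the Dnmt1 CKO gave -0.038 to 0.0076 for Nrcam and -0.038 to 0.0065 for Scn8a. The Dnmt3a CKO gave -0.080 to 0.013 for Nfasc, -0.030 to 0.040 for Cntn2, -0.052 to 0.0093 for Cntnap1 and -0.056 to 0.025 for Ank3. The difference of Ank2 between the lines ran from -0.0038 to 0.069. Between the controls the ranges were -0.042 to 0.0076 for Nrcam, -0.0038 to 0.047 for Cntn1, -0.059 to 0.080 for Cntnap1 and -0.047 to 0.033 for Ank3. With 3 mice per group and no read numbers, small differences such as those of the other 8 genes were not resolved further.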

Other observations

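The summed FPKM of the 9 genes was 424 ± 6.72 in control and 395 ± 2.19 in CKO mice of the Dnmt1 line, and 435 ± 12.9 in control and 419 ± 8.56 in CKO mice of the Dnmt3a line (SD, n = 3). Ank2 and Cntn1 made up the largest shares in the Dnmt1 controls (22.4% and 21.1%), and Cntn2 the smallest (1.69%).

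A pair of further matrix genes are given with their values seen first. Tnr (tenascin-R), a glycoprotein of the perinodal matrix made by oligodendrocytes, had 20.5, 18.5 and 19.2 FPKM in the Dnmt1 controls and 16.3, 16.6 and 17.8 FPKM in the CKO, without overlap and not called (-0.20, SE 0.052, adjusted p = 0.176 from limma). Ncan, the proteoglycan neurocan, was at -0.12 (adjusted p = 0.372) with overlapping groups.

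Between the control groups, 7 of the 29 domain genes were lower in the Dnmt1 line without overlap, where 3.99% of all symbols were, 4 of them among the 5 glial loop genes. By limma 0 of 29 were called and 7 had an unadjusted p under 0.05, against 7.74% of all symbols. Without the library labelled Dnmt3a control replicate 2 the counts were 7 of 29 (beside 6.68% of all symbols) and 4 of 5, with 0 of 29 called and 5 at an unadjusted p under 0.05 (beside 4.73%).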
